A study of Rattus norvegicus with 19 samples.

Results

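Mast cells sorted from the skin of newborn rats were compared with mast cells sorted from the bone marrow of pups of the same age, postnatal day 2 (PN2). The comparison took all libraries that the labels place in these groups, 5 from skin and 4 from bone marrow, which are 9 of the 19 libraries of the series. Both groups came from wild-type pups perfused with phosphate-buffered saline. Each library held cells pooled from 6 animals, which cannot be separated, so the spread given here is that between pools. The other libraries came from hippocampus (4 at PN2 and 3 at PN7) and hypothalamus (2 at PN2 and 1 at PN7). They share in the estimate of the spread and are described only where they place a skin or bone marrow transcript.

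Mast cells arise from haematopoietic precursors and mature in the tissue they settle in, where the kit receptor and its ligand keep them alive. Those of the skin belong to the connective tissue type, whose granules store histamine, heparin and serine proteases and are released when antigen cross-links IgE on the receptor FcεRI. Bone marrow is where precursors and most other blood lineages form, and FcεRI is also carried by basophils. Here the cells of both tissues were taken by the same gate on live singlets that were CD45-high, CD11b-negative and FcεRI-positive.

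Each row of the table carries an Ensembl transcript identifier and no gene name. The gene table used here holds an Ensembl identifier for 0 of its 47357 genes, so 0 transcripts were named. No mast cell protease, receptor or marker of another lineage could be read. The labelled cell type was therefore not checked in either tissue, and "mast cells" below means the sorted cells. Their purity was not tested. In bulk RNA, fewer cells of a kind and less RNA per cell cannot be told apart.

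Depth was similar in both tissues, at 16196856 to 22563833 estimated counts per bone marrow library and 11704985 to 26394623 per skin library. Levels are CPM, a transcript's counts scaled by the product of the library total and the TMM factor, edgeR's scaling factor for each library. These factors ran from 1.027 to 1.222 in bone marrow and from 0.9111 to 1.033 in skin. The CPM of different libraries therefore do not add up to a common total, and summed CPM are not shares of a library's counts. CPM levels serve to compare a transcript between libraries. They are not per length, so the order of different transcripts is one of counts and not of molecules. Replicates correlated at r = 0.919 to 0.972 within bone marrow and 0.924 to 0.966 within skin, against a mean of 0.829 over the 20 pairs across tissues. These correlations are of log2 CPM across transcripts, which are not independent replicates.

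Bone marrow replicate 4 stood apart from the other bone marrow libraries. Its chi-square per degree of freedom against them was 255 to 280, while replicates 1 to 3 differed from each other by 19.3 to 19.6. It was the highest or the lowest of the 4 for 84.4% of the 7894 transcripts with a mean of at least 10 CPM in both tissues, where an even spread would give 50%. Relative to replicates 1 to 3, 362 of these transcripts were at least 2-fold higher in it and 700 at least 2-fold lower. In skin, replicates 4 and 5 were the closest pair by chi-square per degree of freedom (14.5), while replicates 2 and 3 correlated best (r = 0.966 against 0.962). Replicates 4 and 5 differed from replicates 1 to 3 by at least 2-fold in 127 transcripts upwards and 151 downwards. Skin replicate 1 correlated at 0.924 to 0.947 with the other skin libraries. It had 58 transcripts at least 4-fold from the others, against 17 to 37 for the other skin libraries. The labels give no batch for these libraries, and the counts of calls and the named transcripts are given with and without bone marrow replicate 4.

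**Figure D1:**
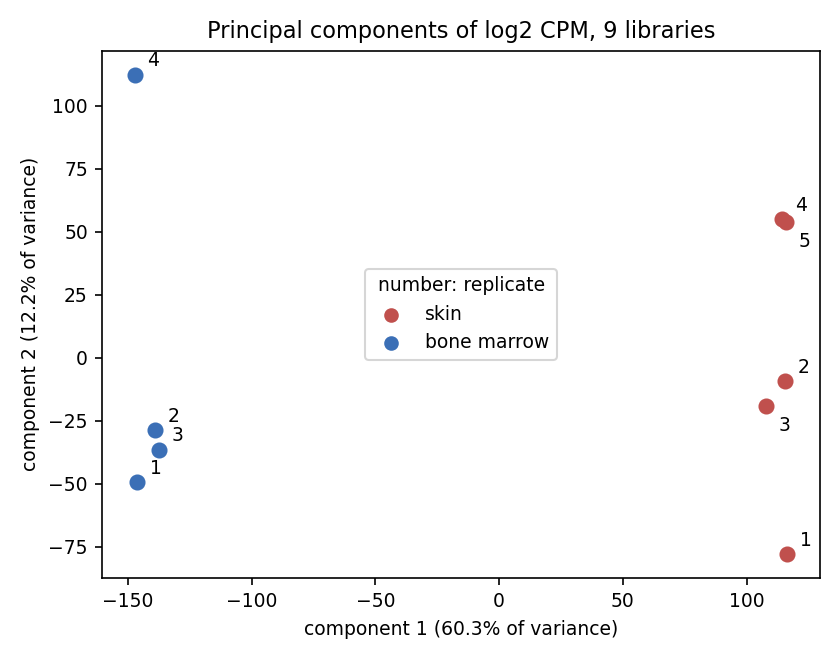
Principal components of log2 CPM over the 9 libraries, with component 1 on the x axis, component 2 on the y axis and each point a library numbered by its replicate. Component 1 (60.3% of the variance) parts skin, at 107.8 to 116.4, from bone marrow, at -147.1 to -137.5; component 2 (12.2%) sets bone marrow replicate 4, at 112.3, apart from the other 3 bone marrow libraries and spreads skin from -77.81 to 54.92.

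Tissue was the largest source of variation among these libraries. The first principal component held 60.3% of the variance, and the skin and bone marrow libraries lay at its opposite ends without overlap. The second component, with 12.2%, did not follow tissue: bone marrow replicate 4 lay at 112.3 and skin replicates 4 and 5 at 54.92 and 53.81, while the other 6 libraries lay between -77.81 and -9.403.

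The 5 most abundant transcripts of the skin cells had means at least 8.45-fold above those of the bone marrow cells, where some were still abundant. The 4 most abundant of the bone marrow cells averaged at most 14.2 CPM in skin, but 3 of them carry identical values and are treated below as a single observation. A pair of transcripts in each direction is named, those with the largest difference in mean CPM among 2089 higher and 2134 lower ones that passed the test, reached a mean of 10 CPM in the higher tissue and did not overlap between the tissues.

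ENSRNOT00000014970.7 was the most abundant transcript in all 5 skin libraries. Over skin replicates 1 to 5 it held 76824, 63981, 64819, 54442 and 49968 CPM. Over bone marrow replicates 1 to 4 it held 3577, 5186, 4836 and 239 CPM. Every skin library lay above every bone marrow library, and replicate 4 was far below the rest of bone marrow. The skin mean was 62007 ± 10411 CPM (SD, n = 5) and the bone marrow mean 3460 ± 2255 CPM (SD, n = 4). The log2 fold change was 4.16 ± 0.61 (SE; adjusted p = 5.01e-05, edgeR), and without bone marrow replicate 4 it was 3.75 (adjusted p = 4.57e-08, edgeR).

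ENSRNOT00000067539.2 ranked 2 or 3 in the skin libraries, with 74984, 51963, 63398, 33709 and 35108 CPM over replicates 1 to 5. Bone marrow replicates 1 to 4 held 7079, 7771, 8490 and 1201 CPM. The tissues again did not overlap, and the lowest values in each were those of the libraries numbered 4 and 5. The skin mean was 51833 ± 17874 CPM (SD, n = 5) and the bone marrow mean 6135 ± 3340 CPM (SD, n = 4). The fitted log2 difference was 3.08 ± 0.44 (SE), with an edgeR adjusted p = 3.69e-05, and 2.71 without bone marrow replicate 4. This transcript was also abundant in bone marrow replicates 1 to 3, where it ranked 9 or 10, against 46 in replicate 4.

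ENSRNOT00000073555.2 was the most abundant single identifier of all 4 bone marrow libraries, with 45778, 42644, 47854 and 16091 CPM over replicates 1 to 4. Over skin replicates 1 to 5 it held 17.5, 13.2, 11.6, 14.1 and 14.6 CPM, and its rank there ran from 7059 to 8452. The lowest bone marrow library, replicate 4, was still far above every skin library. The bone marrow mean was 38092 ± 14823 CPM (SD, n = 4) and the skin mean 14.2 ± 2.19 CPM (SD, n = 5). The bone marrow mean was 2680-fold the skin mean, and 3190-fold without replicate 4. The fitted log2 fold change was -11.39 ± 0.38 (SE; adjusted p = 6.19e-12, edgeR).

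ENSRNOT00000080221.1 held 25753, 24190, 25611 and 8789 CPM over bone marrow replicates 1 to 4. Over skin replicates 1 to 5 it held 10.2, 6.82, 5.69, 8.21 and 7.56 CPM. As for the transcript before it, the tissues lay far apart and replicate 4 held the least within bone marrow. Its log2 fold change was -11.42 ± 0.41 (SE; adjusted p = 1.13e-11, edgeR). The bone marrow mean was 2740-fold the skin mean, and 3270-fold without replicate 4. A further 2 transcripts carried values identical to it in all 19 libraries. These 3 therefore count as 1 observation, and how the reads divide among them is not known. Added together they would exceed ENSRNOT00000073555.2 in every bone marrow library.

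**Figure D2:**
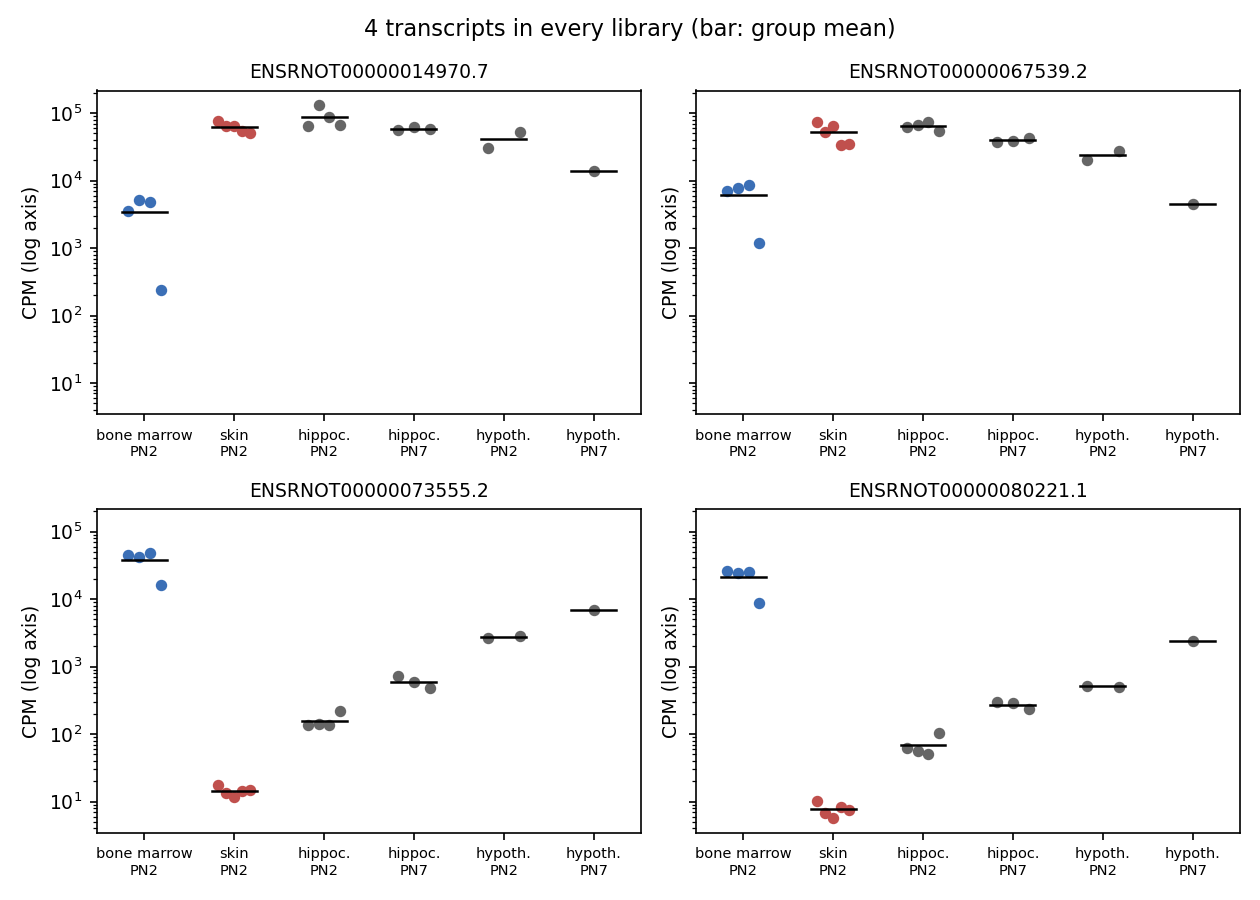
CPM (y axis, log scale) of the 4 named transcripts in every library by tissue and age (x axis), each point a library and each bar a group mean. The upper pair lies at 33709 CPM or more in every skin library and at 8490 CPM or less in every bone marrow library; the lower pair lies at 17.54 CPM or less in every skin library and at 8789 CPM or more in every bone marrow library.

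In the brain the named transcripts took different places. ENSRNOT00000014970.7 reached 87410 ± 31100 CPM in PN2 hippocampus (SD, n = 4), 41440 ± 15300 CPM in PN2 hypothalamus (SD, n = 2) and 14050 CPM in the PN7 hypothalamus library. ENSRNOT00000067539.2 reached 64400 ± 7660 CPM (SD, n = 4), 24170 ± 5170 CPM (SD, n = 2) and 4491 CPM in these groups, the last below the bone marrow mean of 6135 CPM. ENSRNOT00000073555.2 reached 158.6 ± 41.9 CPM in PN2 hippocampus (SD, n = 4), 2736 ± 157 CPM in PN2 hypothalamus (SD, n = 2) and 6808 CPM in the PN7 hypothalamus library. For ENSRNOT00000080221.1 these groups held 68.31 ± 24.1 CPM (SD, n = 4), 507 ± 18.2 CPM (SD, n = 2) and 2383 CPM. Skin thus held the lowest level of ENSRNOT00000073555.2 and ENSRNOT00000080221.1 among the 6 groups, with no overlap between its libraries and those of any other group. For ENSRNOT00000014970.7, by contrast, the skin libraries overlapped those of hippocampus at both ages and of hypothalamus at PN2. The named transcripts were chosen by the contrast of skin with bone marrow, which favours a low skin level for the pair lower in skin. No test of these levels was made.

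The rest of the most abundant transcripts followed the same division. Among the 10 most abundant transcripts of skin, 8 were higher in skin than in bone marrow. Those ranked 3, 4 and 5 averaged 41800, 37000 and 17300 CPM in skin and 676, 934 and 157 CPM in bone marrow. Among the 10 most abundant of bone marrow, 8 were lower in skin, and 7 of these averaged under 15 CPM in skin; they include the 3 identical ones. The 2 lists had 3 transcripts in common, 30% of each. The first of these, at 9800 CPM in skin and 14500 CPM in bone marrow, did not pass the test (adjusted p = 0.32, edgeR). The second, at 8840 and 12800 CPM, was lower in skin with a log2 fold change of -0.54 (adjusted p = 0.0029, edgeR). The third was ENSRNOT00000067539.2.

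Further down the ranks the tissues had more in common. The lists of the 100 most abundant transcripts had 43 in common, 43% of each, and the lists of 1000 had 648, 64.8% of each. Set against the nominal CPM total of a library left unscaled by TMM, the 100 most abundant of skin summed to 40.5% in skin and 11.5% in bone marrow. The 100 most abundant of bone marrow summed to 29.7% there and 26.9% in skin, where the abundant shared transcripts lie in both lists. These percentages are not shares of counts. With TMM factors of 1.027 to 1.222 they are too low for bone marrow. In skin, with factors of 0.9111 to 1.033, the direction varied by library. As shares of counts, the 100 most abundant transcripts of each library held a mean of 39.9% in skin and 32.75% in bone marrow.

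Skin libraries put more of their counts into few transcripts than bone marrow libraries. The 10 most abundant transcripts held 28.9%, 25.1%, 27.3%, 22.0% and 21.2% of the counts in skin replicates 1 to 5, and 19.5%, 18.9%, 20.5% and 13.2% in bone marrow replicates 1 to 4. Every skin library lay above every bone marrow library. The means differed by 6.88 percentage points, which gave p = 0.0159 in an exact two-sided permutation test of 5 against 4 libraries, the smallest this design allows (0.0318 adjusted over 2 tests). With identical transcripts merged, a choice made after seeing the data, skin replicate 5 (21.3%) fell below bone marrow replicate 3 (21.7%), and the exact permutation p was 0.0317. Without the libraries numbered 4 and 5 the difference was 7.47 points with an exact permutation p = 0.1, the smallest that 3 against 3 allow. From 226 to 358 transcripts held 50% of the counts of a skin library, against 439 to 610 in bone marrow, again without overlap.

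The number of different transcripts did not differ detectably. With every library thinned to 11704958 counts, 16990 to 18214 transcripts had a count in skin and 17163 to 17840 in bone marrow. The means were 17561 ± 555 (SD, n = 5) and 17445 ± 297 (SD, n = 4), with an exact two-sided permutation p = 0.714. The ranges of both tissues overlapped, and skin replicates 4 and 5 gave the lowest values of all 9 libraries.

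**Figure D3:**
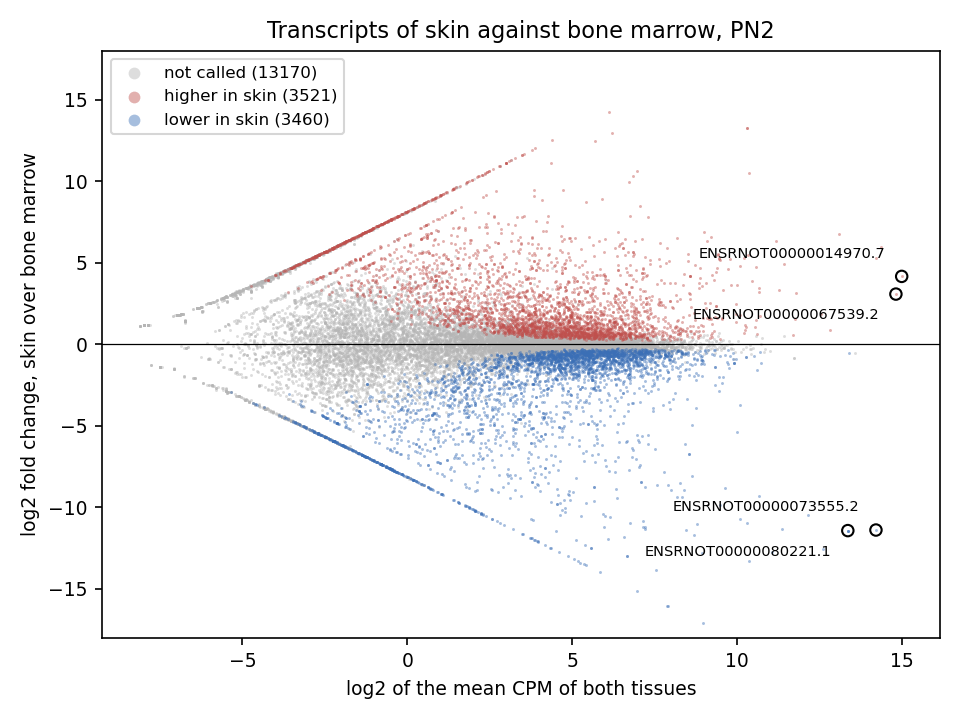
Log2 fold change of skin over bone marrow (y axis) against the log2 mean CPM of both tissues (x axis), each point a transcript, coloured by its call at an adjusted p below 0.05, with the 4 named transcripts circled. The 370 tested transcripts with 0 counts in both tissues are not drawn; 3521 called transcripts lie above 0 and 3460 below, and the straight edges are transcripts with 0 counts in 1 tissue.

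Across the whole table, 6981 of 20521 transcripts tested differed between skin and bone marrow, a share of 34%. Of these 3521 (17.2% of those tested) were higher in skin and 3460 (16.9%) lower. TMM scaling centres the fold changes, with a median of 0 over all transcripts tested, so nothing is read from this even division. How far the scaling sets it was not tested. The test was edgeR's quasi-likelihood test with Benjamini-Hochberg adjustment over all transcripts, called below 0.05. Without bone marrow replicate 4 the count was 6770, and 6047 of these were among the 6981. Without the libraries numbered 4 and 5 it was 5923. The transcripts tested were kept by a filter over all 6 groups and include 370 with 0 counts in both tissues. With only the 9 libraries compared in filter and fit, 7271 of 15725 were called, 6145 of them among the 6981. The libraries of both tissues did not overlap at all in 7085 transcripts (34.5%); among the called ones this held for 2972 of the higher and 2939 of the lower.

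How often a transcript was called went with its abundance. Among the 6038 transcripts with a mean under 1 CPM, 16.1% were called, and their median standard error was 1.48 on the log2 scale. The share called was 33.1% from 1 to 10 CPM, 43.9% from 10 to 100 CPM and 55.7% from 100 to 1000 CPM. Of the 74 transcripts at 1000 CPM or more, 55 (74.3%) were called, 33 higher and 22 lower in skin, and their median called difference was 3.73 on the log2 scale. Among called transcripts of low abundance it was 5.54 under 1 CPM and 3.05 from 1 to 10 CPM. Between 10 and 1000 CPM the median called difference was much smaller, at 1.08 and 1.04 in the lower and upper of both strata. From 100 to 1000 CPM, more transcripts were lower in skin (509) than higher (381).

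Called differences were often large, though typically smaller between 10 and 1000 CPM. At least 4-fold differences were fitted for 1743 transcripts higher in skin (8.49% of those tested) and 1513 lower in skin (7.37%). Without bone marrow replicate 4 these counts were 1686 and 1353, and with only the 9 libraries compared 1448 and 1267. The higher class includes 428 transcripts with 0 counts in every bone marrow library, and the lower class 359 with 0 counts in every skin library. A fitted fold against a tissue at 0 depends on the model's prior, so these were also set to the fold against 3 counts summed over that tissue's libraries. The 4-fold classes then held 1735 and 1507 transcripts, and the median called log2 fold change was 1.96 for the higher and -1.58 for the lower transcripts, against fitted medians of 1.97 and -1.58. The median over all tested transcripts was 0.

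**Figure D4:**
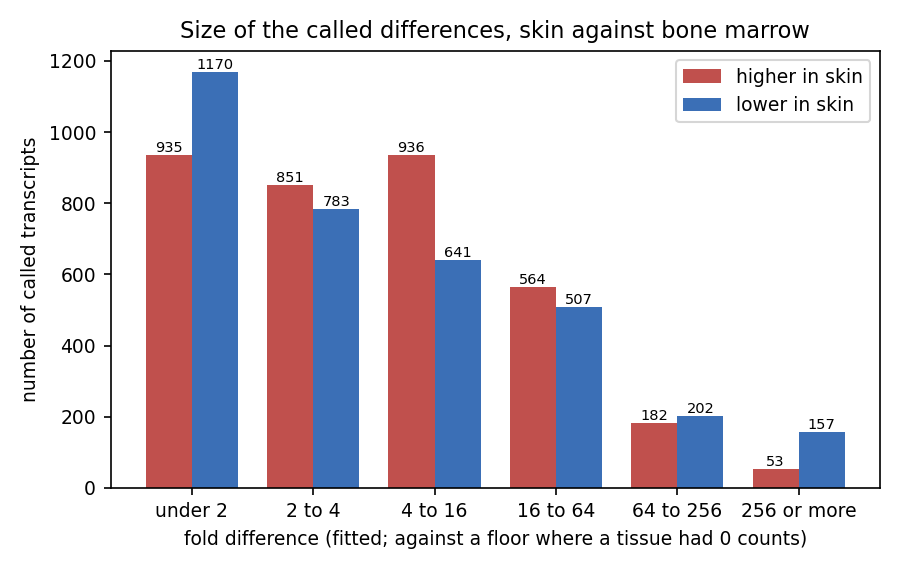
Number of called transcripts (y axis) by the size of the fold difference (x axis) for those higher and lower in skin; transcripts with 0 counts in 1 tissue are placed by their fold against 3 counts over its libraries. From 4 to 16-fold more were higher in skin (936 against 641), and at 256-fold or more fewer were (53 against 157).

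The balance of direction among the called transcripts varied with the size of the difference. Under 2-fold, 935 called transcripts were higher and 1170 lower in skin. From 4 to 16-fold the balance was the other way, with 936 higher and 641 lower. At 256-fold or more, 53 were higher and 157 lower. These counts place transcripts at 0 in 1 tissue by the floor of 3 counts, which is a lower bound; with their fitted folds, 123 were higher and 211 lower at 256-fold or more, and 775 and 560 from 4 to 16-fold. The balance of these classes was not tested. Without bone marrow replicate 1, fewer transcripts were at least 4-fold higher (1387) than lower (1438) in skin. With any other single library left out, more were higher than lower.

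The transcripts that differed by at least 256-fold weighed more in bone marrow than in skin. The 157 that were lower in skin summed to 191400, 174200, 191300 and 100000 CPM over bone marrow replicates 1 to 4, with a mean of 164200 ± 43600 CPM (SD, n = 4). Replicate 4 held the least of them. In skin they summed to 62.76 to 89.13 CPM. In this class 53 transcripts averaged at least 100 CPM in bone marrow, and the 2 most abundant single identifiers held 36% of its CPM. The second of them, ENSRNOT00000080221.1, has 2 further transcripts with identical values, which this share leaves out. Counted together with them as 1 observation, it would bring the share above 36%. The 36% is therefore too low to set beside the share of the skin class given below. The 53 that were higher in skin summed to 8891 to 12010 CPM over the skin libraries and to 3.58 to 4.898 CPM over the bone marrow libraries. Their median level in skin was 16.0 CPM, 11 of them averaged at least 100 CPM, and the 2 most abundant held 52.1% of the CPM of the class. Both classes were chosen by this contrast, so these sums are a description.

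Both extreme classes were present in the brain libraries to different degrees. In hippocampus the 53 transcripts higher in skin summed to 4725 ± 231 CPM at PN2 (SD, n = 4) and 8228 ± 825 CPM at PN7 (SD, n = 3). Their sum in PN2 hypothalamus was 3935 ± 1340 CPM (SD, n = 2), and the single PN7 library there held 6804 CPM. The 157 lower in skin summed to 647.5 ± 191 CPM (SD, n = 4) and 2318 ± 590 CPM (SD, n = 3) at these ages of hippocampus, and to 8173 ± 65.1 CPM (SD, n = 2) and 24670 CPM in hypothalamus. All groups of the brain held more of the second class than any skin library. The class was chosen for low levels in these skin libraries, which favours this order, so nothing is read from it.

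Placed on a scale from the bone marrow mean (0%) to the skin mean (100%) of log2 CPM, the median of the 1743 transcripts at least 4-fold higher in skin lay at 81.3% in PN2 hippocampus and 78% in PN7 hippocampus. It lay at 60.3% in PN2 hypothalamus and 63.3% in the single PN7 library. The share of these transcripts nearer to skin than to bone marrow was 74.5%, 68.8%, 55.7% and 57.4% in the same order. The median of the 1513 at least 4-fold lower in skin lay at 91.3% in PN2 hippocampus and 97.8% in PN7 hippocampus, and at 100% and 96% in hypothalamus at these ages. The share nearer to skin was 85.1%, 84.4%, 77.5% and 66.9%. The median level of these 1513 was low, at -1.97 log2 CPM in skin and -1.47 in PN2 hypothalamus. A transcript with 0 counts in skin and in a brain group falls at 100% by the way the scale is built. The PN2 hypothalamus libraries held only 5495252 and 5607810 counts. The ends of this scale are the libraries that chose the transcripts, which sets skin at its far end, so the values only place the brain libraries.

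Some transcripts were read in 1 tissue only. Of transcripts averaging at least 10 CPM in skin, 25 had 0 counts in all bone marrow libraries, where 3 counts over the tissue correspond to 0.0339 CPM. Their median in skin was 15.9 CPM, 1 of them reached 100 CPM, and together they summed to 561 CPM. In the other direction, 32 transcripts averaging at least 10 CPM in bone marrow had 0 counts in all skin libraries (3 counts: 0.0277 CPM). Their median in bone marrow was 31.2 CPM, 5 reached 100 CPM, the highest averaged 1010 CPM, and together they summed to 3310 CPM. The test called 23 of the 25 and all 32, against 34% of all transcripts tested; the choice by 0 counts in 1 tissue nearly fixes these calls, so nothing is read from them. Without bone marrow replicate 4 the numbers were 28 and 26, so some of the second class passed the limit of 10 CPM through that library.

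These classes also differed in the brain libraries. Of the 25 transcripts read in skin and not in bone marrow, 21 had counts in hippocampus at PN2, 7 of them at a mean of 10 CPM or more, and 18 had counts in hypothalamus at PN2, 8 of them at that mean. Of the 32 read in bone marrow and not in skin, 20 had counts in hippocampus at PN2 and 4 in hypothalamus at PN2. None of them, 0 of 32, reached a mean of 10 CPM in any brain group. The 2 hypothalamus libraries at PN2 held 5495252 and 5607810 counts, against 19935250 to 22967152 in hippocampus at PN2. The numbers with any count are therefore not comparable between these groups. Their summed level was 5.36 CPM in hippocampus at PN2 and 10.6 CPM in hypothalamus at PN2.

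**Figure D5:**
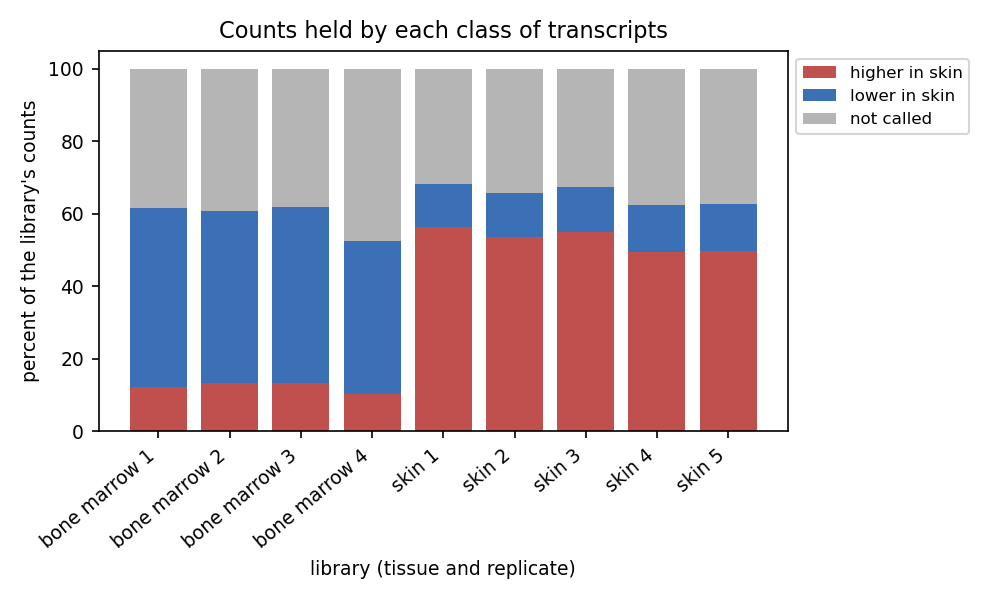
Percent of each library's counts (y axis) held by transcripts called higher in skin, called lower in skin, and not called, for the 9 libraries (x axis). The class higher in skin takes 49.5% to 56.4% of the counts in skin and 10.2% to 13.2% in bone marrow, and the class lower in skin 11.7% to 13.0% and 42.2% to 49.3%.

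The called transcripts made up most of the RNA counted in both tissues. Those higher in skin held 52.8 ± 3.13% of the counts of a skin library (SD, n = 5) and 12.2 ± 1.42% of those of a bone marrow library (SD, n = 4). Those lower in skin held 12.4 ± 0.532% in skin (SD, n = 5) and 47.0 ± 3.23% in bone marrow (SD, n = 4). Transcripts that were not called held 34.8 ± 2.63% and 40.8 ± 4.57% of the counts, with 47.6% in bone marrow replicate 4 against 38.1% to 39.0% in the other bone marrow libraries. Since the calls come from these same libraries, the shares describe how the RNA was divided and are no further test.

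For part of the transcripts the data bound the difference from above. The 95% interval of the log2 fold change lay within 2-fold in both directions for 5348 transcripts (26.1% of those tested), of which 988 were nevertheless called with a small difference. Of the 726 transcripts of at least 100 CPM that were not called, 644 (88.7%) had such an interval, so a difference of 2-fold or more lies outside it. Of 5005 uncalled ones of at least 10 CPM, 3862 (77.2%) had one. For a further 8810 uncalled transcripts (42.9% of those tested) the interval reached past 2-fold, so a difference of that size lies within it.

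Pools of the same tissue were close to each other apart from the libraries named above. Over the 7894 transcripts of at least 10 CPM in both tissues, the median SD of log2 CPM was 0.203 in skin (n = 5) and 0.244 in bone marrow (n = 4). It was 0.11 among bone marrow replicates 1 to 3 and 0.156 among skin replicates 1 to 3. The median log2 deviation of bone marrow replicate 4 from the mean of the other 3 was -0.28 for transcripts higher in skin, -0.155 for those lower in skin and -0.111 for those not called. The shift was thus downward in every class, away from the skin level in the first and towards it in the second. The TMM scaling factor of this library was 1.222, against 1.027 to 1.08 in the other bone marrow libraries. How much of the shift is an offset of the whole library was not tested.

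The authors' counting divided reads that fit several transcripts. Of the tested transcripts, 9851 had whole numbers in all 19 libraries (tolerance 1e-06) and 10670 had a split count in at least 1. Calls were made for 39.5% of the first (1928 higher and 1963 lower in skin) and 29.0% of the second (1593 and 1497). The first were also more abundant, with a median of 12.1 CPM against 4.04 CPM, and the part of abundance in this difference was not tested.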

How the data were processed

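The authors deposited 1 table of unnormalized estimated counts for Ensembl transcripts. The submitters' processing notes name kallisto and the rat build Rnor_6.0; the version and the settings are not known here. SMART-Seq v4 cDNA went into Nextera XT libraries, per the labels' protocols. Both kits amplify by PCR without molecular identifiers, so floors cover counting error only.

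Counts were rounded. filterByExpr, with the 6 groups of tissue and age, kept 20521 of 29107 transcripts, 2245 of them identical to another. edgeR 4.0.16 (R 4.3.3) with TMM scaling fitted all 19 libraries by group (glmQLFit, robust), and skin minus bone marrow was tested with glmQLFTest. The standard error is the log2 fold change over the square root of F. Log2 CPM used a prior count of 2. Single values were tested by exact permutation (SciPy 1.17.1). Figures used matplotlib 3.10.9. The test was tried on simulated counts.

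Named transcripts are the 2 in each direction with the largest difference in mean CPM among those called, with at least 10 CPM in the higher tissue and no overlap. The 35 lists with 465 genes written for this work, cell type markers included, could not be matched to transcripts and gave no result. The comparison, lists and rules were chosen with earlier results of these data known. Replicate numbers were not taken to pair the tissues. Alternatives were DESeq2 1.42.0 size factors and test, limma 3.58.1 voom, other filters, fewer libraries, the replicate number as a block, thinning and merging of identical transcripts. Added after seeing the data were transcripts with whole counts only, a test against a 2-fold change (glmTreat), merging for the top shares, and leaving out the libraries numbered 4 and 5 there.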

Additional observations from a re-analysis of the deposited data

Results flagged for a closer look

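Over 34 sets of values, 1 per measure and tissue, 6 held a library far from the others by Dixon's test at its 95% limit, and 5 of these were bone marrow replicate 4; chance alone flags about 1 in 20 sets. The measures overlap, so these are not independent signs. Of ENSRNOT00000073555.2, bone marrow replicate 4 held 16090 CPM, against 42640 to 47850 CPM in the other bone marrow libraries. Of ENSRNOT00000080221.1 it held 8789 CPM, against 24190 to 25750 CPM. Its most abundant transcript took 1.97% of its counts, against 4.6% to 4.91%. Transcripts not called between skin and bone marrow held 47.6% of its counts, against 38.1% to 39% in the others. On the second principal component it lay at 112.3, and the others between -49.47 and -28.63. In skin, replicate 3 lay at 107.8 on the first component and the others between 114.4 and 116.4.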

How the results depend on the processing

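All 4 named transcripts kept their direction and call in every alternative that gave them a value; the bone marrow pair has split counts and was not tested among whole counts. Their adjusted p-values reached at most 0.00139, 0.00151, 1.95e-07 and 2.28e-07 (edgeR, only the 9 libraries compared), in the order given. Leaving out each library in turn gave 6039 to 6770 called transcripts (2839 to 3327 higher, 3039 to 3443 lower) and 2825 to 3039 at least 4-fold (1387 to 1686 higher, 1345 to 1438 lower). With limma voom 10071 were called, with DESeq2 7649. Among the 9780 transcripts with whole counts only, 4211 were called (2111 higher, 2100 lower), with 1833 at least 4-fold (990 and 843). With the stricter filter 1878 were at least 4-fold (1041 and 837). Tested against a 2-fold change, 3056 were called (1611 higher, 1445 lower).

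Same-numbered skin and bone marrow libraries had deviations correlating at 0.141, 0.0292, 0.0557 and 0.164 for numbers 1 to 4. Bone marrow replicates 1 and 4 correlated best with their own number, and replicates 2 and 3 better with skin replicate 1. Bone marrow replicate 4 also correlated at 0.155 with skin replicate 5, but at -0.183 to -0.0515 with skin replicates 1 to 3. Bone marrow replicates 1 to 3 correlated negatively with skin replicates 4 and 5. The labels do not say that a number is shared between tissues, so the numbers were not taken to pair them. With the replicate block 6336 were called, 5933 of them among the 6981 (2689 at least 4-fold), and it ended no call of a named transcript.

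The difference in transcripts detected turned to -1.5 with at least 5 counts required and ran from -47.25 (without skin replicate 3) to 258.8 when 1 library was left out. That in the top 10 share ran from 5.267 to 7.8 points and stayed at 7.467 without the libraries numbered 4 and 5, with an exact permutation p of 0.1. With a limit of 1 CPM, 219 transcripts were at 0 in bone marrow and 192 in skin; at 50 CPM these were 1 and 11. Leaving out 1 library gave 25 to 36 and 26 to 45. Under 1 CPM the median standard error was 1.48 on the log2 scale; the parts of depth and of spread between pools in it were not tested.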
